A study of Mus musculus with 24 samples.

Results

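The variable (V) segments of the mouse T cell receptor alpha and beta chains were described in RNA-seq counts from D4M tumours. The 163 members were all genes of the count table whose symbol begins with Trav (128 alpha chain segments, on chromosome 14) or Trbv (35 beta chain segments, on chromosome 6), out of 55414 genes. D4M is a mouse melanoma line, and all 24 tumours came from C57BL/6 WT mice given intraperitoneal injections, with 6 tumours in each of 4 groups. The IgG2a group received an IgG2a antibody, which serves as the control, and the PD-1 group received an anti-PD1 antibody against a checkpoint receptor of T cells. The BRQ+IgG2a group received BRQ (brequinar, an inhibitor of the pyrimidine synthesis enzyme DHODH) with the IgG2a antibody, and the BRQ+PD-1 group received BRQ with the anti-PD1 antibody. The labels give no dose, age, sex or time, and the aim stated by the design was the effect of the drug combination on the tumour environment. Labels call the 6 tumours of a group biological replicates, so p-values measure the spread between tumours.

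Each developing T cell assembles its receptor genes by DNA recombination: 1 V segment is joined to a J segment (with a D segment in the beta chain), and the transcript is spliced to a constant region, Trac for alpha and Trbc1 or Trbc2 for beta. The V segment encodes most of the receptor's variable domain and the start of its most variable loop, CDR3. A gene-level count of V transcripts therefore shows which germline segments the T cells of a tumour used, not which rearrangements (clonotypes) they carried. In bulk tissue, fewer T cells and less receptor RNA per cell cannot be told apart.

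The 3′ ends of 7 Trbv segments, the 6 with the highest mean level and Trbv29, are shown because this is the part that enters CDR3. Trbv17, Trbv13-3 and Trbv13-1 also led an IgG2a tumour each, on 10, 3 and 6 counts, and are not shown. Each line is the last 90 bases of the GENCODE M21 transcript, 5′ to 3′, with the codon of the conserved cysteine that opens CDR3 in capitals.
Trbv15: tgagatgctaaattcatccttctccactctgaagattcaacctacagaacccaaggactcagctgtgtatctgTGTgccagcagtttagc
Trbv16: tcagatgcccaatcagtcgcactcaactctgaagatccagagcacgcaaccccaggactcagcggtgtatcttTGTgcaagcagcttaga
Trbv13-2: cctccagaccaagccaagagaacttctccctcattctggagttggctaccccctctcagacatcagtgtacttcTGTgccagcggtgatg
Trbv12-1: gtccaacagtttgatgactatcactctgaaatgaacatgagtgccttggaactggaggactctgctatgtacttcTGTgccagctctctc
Trbv12-2: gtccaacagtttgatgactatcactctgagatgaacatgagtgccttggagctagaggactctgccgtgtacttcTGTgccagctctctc
Trbv14: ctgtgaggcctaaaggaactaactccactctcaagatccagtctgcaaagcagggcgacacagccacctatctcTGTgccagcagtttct
Trbv29: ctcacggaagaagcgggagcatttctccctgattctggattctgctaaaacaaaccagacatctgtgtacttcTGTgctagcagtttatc
Of these, Trbv15 lies at chr6:41141188-41141658, Trbv16 at chr6:41151740-41152230 and Trbv13-2 at chr6:41121396-41121832, all on the plus strand of GRCm38. The capital codon was the end of the motif TANNTNTGN, searched on the sense strand in the last 60 bases, where 129 of the 163 members (79.1%) held it. Trbv12-1 and Trbv12-2 were 88.3% identical over 385 aligned bases, Trbv13-2 and Trbv13-3 90.6% over 340 bases, and Trbv15 and Trbv16 71.5% over 368 bases. No 2 of the 35 Trbv members shared a stretch of 100 bases.

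The alpha locus holds duplicated blocks whose copies carry the letters d and n, so that many Trav members have near-identical partners. The leading Trav segments are shown in the same way, to let the copies Trav8d-2 and Trav8n-2 be compared.
Trav8d-2: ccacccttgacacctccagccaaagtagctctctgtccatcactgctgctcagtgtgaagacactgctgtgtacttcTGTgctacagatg
Trav8n-2: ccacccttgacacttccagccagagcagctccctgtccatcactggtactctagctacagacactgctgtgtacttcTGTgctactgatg
Trav7-6: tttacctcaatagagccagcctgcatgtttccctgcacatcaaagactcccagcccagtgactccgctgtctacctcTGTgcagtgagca
Trav4-4-dv10: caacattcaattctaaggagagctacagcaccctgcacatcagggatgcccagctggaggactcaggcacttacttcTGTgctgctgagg
Trav8d-2 (chr14:53042428-53042891) and Trav8n-2 (chr14:53345890-53346424), on the plus strand of GRCm38, differed at 25 of 337 aligned bases. Trav7-6 was 97.6% identical to Trav7n-6, and Trav4-4-dv10 was 96.9% identical to Trav4n-4. Of the 128 Trav members, 99 shared at least 1 window of 100 bases with another member and 38 shared every window. All 38 members with every window shared had 0 counts in all tumours. Of the 61 that shared some windows 11 had no count, and of the 29 without a shared window 11 had none. How reads that match several copies were counted is not given in the sources used here, so the split of counts between such copies is uncertain, and the Trav sums hold no count from those 38 members.

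V segment counts were sparse. The library totals were 19106205 to 34282319 counts, and of these 22 to 377 per tumour fell on V segments, 2567 in all (1022 Trav and 1545 Trbv). Of the 163 members, 90 had a count in any tumour and 73 had none. Pseudogenes made up 20 of the 128 Trav and 13 of the 35 Trbv members, and took 1.08% of the Trav and 0.129% of the Trbv counts. Of the 22 Trbv segments that are not annotated as pseudogenes, 21 were counted in at least 1 tumour. Of 643 detections of a segment in a tumour, 221 (34.4%) rested on 1 count. Trbv counts exceeded Trav counts in 18 of the 24 tumours.

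Some libraries stood apart in muscle and lymph node genes. Skeletal muscle markers summed to 10583 CPM (counts per 1000000 of the library total) or more in IgG2a replicates 2 and 3, PD-1 replicate 6 and BRQ+IgG2a replicate 4, and to at most 1347 CPM in the other 20 tumours. PD-1 replicate 6 also had 59.2 CPM over 8 B cell markers, where the other 23 tumours had 1.55 to 7.79 CPM. Lymph node stroma markers summed to 20.1 CPM in that tumour, 12.4 CPM in BRQ+IgG2a replicate 4 and 9.36 CPM in BRQ+PD-1 replicate 4, and to at most 3.99 CPM elsewhere. Where a result is also given without some of these libraries, the text says so, and all other results include them.

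V segments together were most abundant in the BRQ+IgG2a tumours and least abundant in the IgG2a tumours. The IgG2a tumours held 71, 98, 27, 22, 37 and 23 V segment counts (replicates 1 to 6), or 1.65 ± 1.03 CPM (mean ± SD, n = 6). The PD-1 tumours held 139, 33, 67, 99, 85 and 106 counts, or 3.41 ± 1.18 CPM. The BRQ+IgG2a tumours held 277, 122, 123, 117, 55 and 377 counts, or 7.41 ± 5.18 CPM. The BRQ+PD-1 tumours held 51, 130, 179, 169, 61 and 99 counts, or 4.63 ± 2.21 CPM. The groups overlapped: 5 of 6 BRQ+IgG2a, 4 of 6 BRQ+PD-1 and 3 of 6 PD-1 tumours lay above the highest IgG2a tumour, replicate 2 at 3.38 CPM. BRQ+IgG2a replicate 5 was the tumour of its group that did not, at 2.55 CPM, and BRQ+IgG2a replicate 6 was the highest of all 24 at 16.3 CPM.

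Expressed as a ratio of group means, V segments were 4.49 times as abundant in BRQ+IgG2a as in IgG2a. Leaving out 1 tumour at a time, this ratio ran from 3.41 without BRQ+IgG2a replicate 6 to 5.68 without IgG2a replicate 2. It was 6.04 without the 4 muscle-rich libraries. The corresponding ratios to IgG2a were 2.07 for PD-1 and 2.80 for BRQ+PD-1, and BRQ+PD-1 stood at 1.36 times PD-1 and 0.624 times BRQ+IgG2a. Without the muscle-rich libraries, these 4 ratios were 2.45, 3.46, 1.41 and 0.573 in that order. These comparisons share control tumours, and no p-value was computed for the sums because their members were chosen with earlier results known.

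Both chains followed the same order of group means. Trav summed to 0.783 ± 0.390 CPM in IgG2a, 1.53 ± 0.395 in PD-1, 2.62 ± 1.62 with BRQ+IgG2a and 1.82 ± 1.05 with BRQ+PD-1 (mean ± SD, n = 6 each). Trbv summed to 0.869 ± 0.682, 1.88 ± 0.880, 4.79 ± 3.61 and 2.81 ± 1.23 CPM in the same order. The ratio of BRQ+IgG2a to IgG2a was 3.35 for Trav and 5.51 for Trbv, and the Trbv ratio was 8.53 without the 4 muscle-rich libraries. Without the single segment Trbv15, the Trbv ratio was 4.02. The lowest Trav sum of the PD-1 group, 0.749 CPM in replicate 2, lay below those of its other 5 tumours, which were 1.52 to 1.78 CPM.

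**Figure D1:**
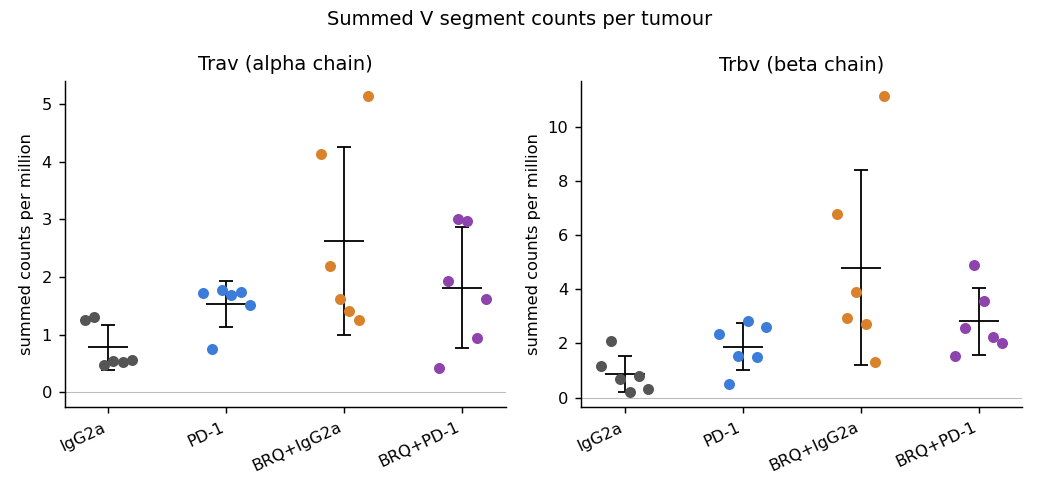
Summed CPM of the Trav segments (left) and Trbv segments (right) for each of the 24 tumours, by group; points are tumours, the horizontal bar is the mean and the whiskers are 1 SD (n = 6). For Trbv, 5 of 6 BRQ+IgG2a tumours lie above the highest IgG2a tumour, and BRQ+IgG2a replicate 6 is the highest at 11.1 CPM.

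The difference between IgG2a and BRQ+IgG2a was spread over many segments rather than held by 1. Of the 22 Trbv members with a count in either group, 21 had a higher mean CPM in BRQ+IgG2a and 1 had a lower mean. Of the 59 Trav members with a count in either group, 46 had a higher and 13 a lower mean. Members without a count in IgG2a could only come out higher, and those without one in BRQ+IgG2a only lower. IgG2a held counts on 16 Trbv and 35 Trav members, and BRQ+IgG2a on 22 and 53. The shares below therefore also depend on how many members were counted in each group. Over all genes with a count in either group, 51.4% had a higher mean in BRQ+IgG2a, against 95.5% for Trbv and 78.0% for Trav. In PD-1 against IgG2a, 15 Trbv members were higher and 3 lower, and 40 Trav members were higher and 20 lower. In BRQ+PD-1 against IgG2a, 17 Trbv members were higher and 1 lower, and 40 Trav members were higher and 14 lower. Between BRQ+PD-1 and PD-1 the split was 12 higher and 6 lower for Trbv and 30 higher and 30 lower for Trav. In BRQ+PD-1 against BRQ+IgG2a, 6 Trbv members were higher and 16 lower, and 20 Trav members were higher and 42 lower. The share of all counted genes with a higher mean was 52.6% in PD-1 against IgG2a, 50.0% in BRQ+PD-1 against IgG2a, 48.3% in BRQ+PD-1 against PD-1 and 44.8% in BRQ+PD-1 against BRQ+IgG2a. These are directions of means, with no test, and most rest on few counts.

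The test across all genes could be run on few members. Of the 163 members, 2 passed the expression filter, Trbv13-2 and Trbv16, and neither was called by edgeR's quasi-likelihood test in any of 6 comparisons at a Benjamini-Hochberg adjusted p under 0.05 over 16029 genes. The share of all tested genes called was 3.46% in BRQ+IgG2a against IgG2a, 0.0187% in PD-1 against IgG2a, 3.91% in BRQ+PD-1 against IgG2a and 5.04% in BRQ+PD-1 against PD-1. Of the genes called in BRQ+IgG2a against IgG2a, those lower were 0.493% of the genes tested, and in BRQ+PD-1 against PD-1 those lower were 2.66%. The share called was 0% in BRQ+PD-1 against BRQ+IgG2a and in the interaction, the difference between the BRQ effects with and without anti-PD1. In those last 2 comparisons, edgeR found 1168 and 1222 genes at an unadjusted p under 0.05, and DESeq2 called 4 and 11 genes after adjustment. At an unadjusted p under 0.05, 1 member passed in BRQ+IgG2a against IgG2a and 1 in the interaction, Trbv13-2 in both.

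Trbv13-2, a beta chain segment of the classical V beta 8 family, came closest to the threshold. Its counts were 2, 3, 7, 0, 3 and 0 in IgG2a (replicates 1 to 6) and 14, 8, 5, 18, 17 and 11 in BRQ+IgG2a. In PD-1 they were 11, 1, 2, 6, 3 and 16, and in BRQ+PD-1 0, 2, 11, 6, 6 and 7. It was counted in 6 of 6 BRQ+IgG2a tumours and was higher there than in most IgG2a tumours, with overlap between BRQ+IgG2a replicate 3 and IgG2a replicate 3. The means were 0.501 ± 0.203 CPM in BRQ+IgG2a and 0.0974 ± 0.113 CPM in IgG2a (SD, n = 6 each). The log2 fold change was 2.37 ± 0.73 (SE) with an edgeR adjusted p of 0.0762. Trbv13-2 was called with DESeq2 (adjusted p 0.0326), without IgG2a replicate 3 (0.0352) and without the 4 muscle-rich libraries (0.0325). The shares of all genes called higher in those fits were 4.37%, 2.06% and 3.57%. Over all alternatives its adjusted p was 0.0325 to 0.160. Its interaction term was -2.50 ± 1.01 on the log2 scale, with an unadjusted p of 0.0204 and an edgeR adjusted p of 0.621.

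Trbv16 was the segment that led the most tumours, being the top Trbv segment, ties included, in 9 of 24. Its counts were 0, 23, 2, 0, 2 and 2 in IgG2a, 22, 2, 1, 14, 0 and 2 in PD-1, 36, 2, 6, 9, 2 and 16 with BRQ+IgG2a, and 0, 20, 10, 8, 14 and 12 with BRQ+PD-1. High and low tumours occurred in each group, and all groups overlapped. The log2 fold change of BRQ+IgG2a against IgG2a was 1.43 ± 0.95 (SE), with an edgeR adjusted p of 0.531. Without IgG2a replicate 2, which held 23 of the 29 Trbv16 counts of its group, it was 3.26 with an adjusted p of 0.0955.

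Trbv15 had the largest total of any V segment, 249 counts, of which 152 came from a single tumour. Its counts were 0, 1, 0, 0, 0 and 2 in IgG2a, 2, 1, 5, 3, 1 and 10 in PD-1, 2, 9, 20, 9, 0 and 152 with BRQ+IgG2a, and 22, 4, 5, 0, 1 and 0 with BRQ+PD-1. BRQ+IgG2a replicate 6 stood at 6.56 CPM and the next tumour of that group, replicate 3, at 0.897 CPM. In the fit without an expression filter, which tested 90 members among 32949 genes, Trbv15 was called higher in BRQ+IgG2a than in IgG2a (log2 fold change 5.86, adjusted p 0.0433). Trbv12-1 was the other member called higher there (log2 fold change 4.15, adjusted p 0.0339), and 0.98% of all genes were. Trbv12-1 had 0, 0, 0, 1, 2 and 0 counts in IgG2a and 7, 13, 26, 3, 0 and 9 in BRQ+IgG2a. Its counts were 5, 2, 1, 2, 0 and 5 in PD-1 and 0, 5, 5, 1, 6 and 0 in BRQ+PD-1. Fold changes of segments this close to 0 in IgG2a depend on the prior count of the fit.

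**Figure D2:**
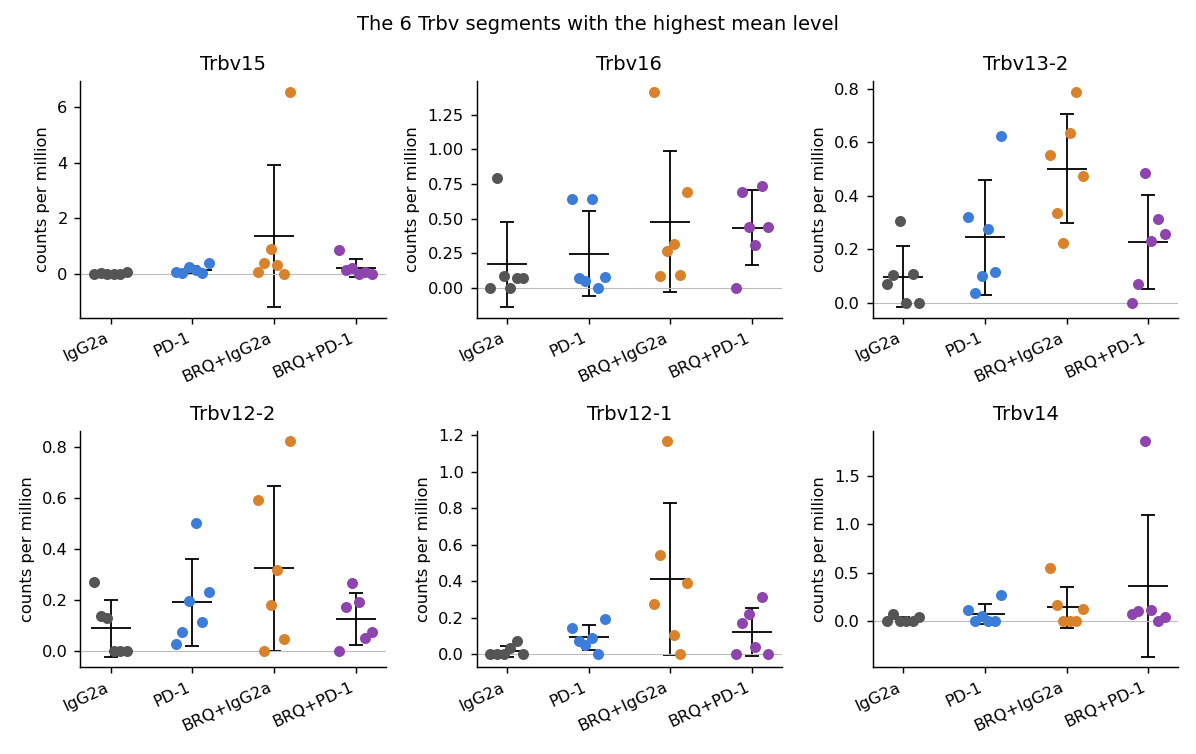
CPM of the 6 Trbv segments with the highest mean level, for each tumour by group; points are tumours, the horizontal bar is the mean and the whiskers are 1 SD (n = 6), and each panel has its own scale. Trbv13-2 is present in all 6 BRQ+IgG2a tumours, while the Trbv15 and Trbv14 means are set by 1 tumour each.

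Per transcript length, the beta segments with the highest mean over all tumours were Trbv15 at 1.18 CPM per kilobase, Trbv16 at 0.838, Trbv13-2 at 0.787, Trbv12-2 at 0.477, Trbv12-1 at 0.417 and Trbv14 at 0.406. These 6 segments held 58.4% of the Trbv counts. The place of Trbv15 rests on BRQ+IgG2a replicate 6, which held 152 of its 249 counts, and it was counted in 17 tumours. Of the 35 Trbv members, 16 were counted in all 4 groups, 2 in 3 groups and 4 in BRQ+IgG2a alone, each of the 4 in a single tumour. The 4, named after their values were seen, were Trbv4 (3 counts), Trbv24 (2 counts), Trbv5 and Trbv30 (1 count each). Trbv4 and Trbv5 overlap the non-coding gene 5830405F06Rik on the same strand, which had 3 counts in all, so their reads cannot be told apart from its own.

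The Trav counts fell on more members than the Trbv counts, 68 against 22. The 6 leading Trav segments held 36.3% of the Trav counts: Trav8d-2 with 128, Trav8n-2 with 64, Trav7-6 with 58, Trav4-4-dv10 with 43, Trav13-2 with 40 and Trav12-2 with 38 counts. By family, Trav8 held 20.6% and Trav7 15.3% of the Trav counts. The leading Trbv families, Trbv13 and Trbv15, held 19.1% and 16.1% of the Trbv counts. Trav8d-2 had 2, 7, 0, 0, 0 and 2 counts in IgG2a, 4, 5, 10, 0, 1 and 1 in PD-1, 7, 13, 16, 0, 0 and 23 with BRQ+IgG2a, and 0, 6, 18, 5, 0 and 8 with BRQ+PD-1. It was the top Trav segment, ties included, in 8 tumours and absent from 8. Its partner copy Trav8n-2 led 5 tumours and was the Trav member counted in 6 of 6 BRQ+IgG2a tumours, with 1, 7, 2, 4, 13 and 1 counts. Trav7-6, at 45 counts in BRQ+IgG2a replicate 6, had 13 counts in the other 23 tumours together, 8 of them in BRQ+PD-1 replicate 6. Trav members with dv in their symbol, such as Trav4-4-dv10, are also named as delta chain segments. Which chain their counts came from was not tested.

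**Figure D3:**
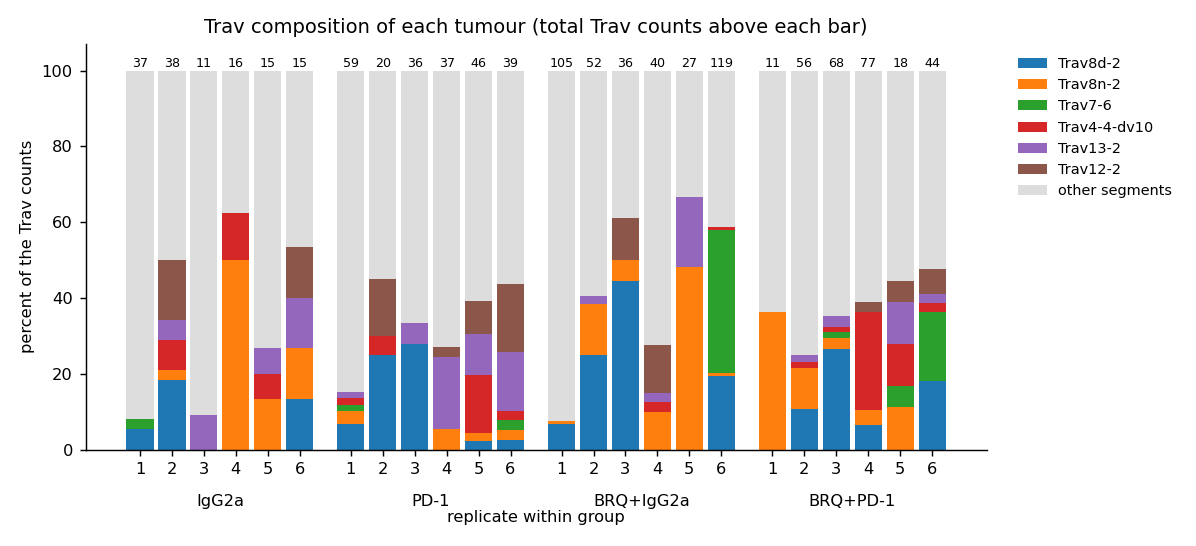
Share of each tumour's Trav counts held by the 6 leading Trav segments (colours) and by all other Trav segments (grey), in percent; the number above each bar is the tumour's Trav count. Trav7-6 holds 37.8% of 119 counts in BRQ+IgG2a replicate 6, and no Trav segment leads all tumours of a group.

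Unconventional T cells often use fixed alpha chains. Trav11 and Trav11d, which encode the invariant chain of NKT cells and are identical over the 342 aligned bases, had 0 counts in all 24 tumours. Trav11d is 1 of the 38 members with every window shared, and Trav11 shared 243 of its 244 windows. Their 0 therefore sets no limit on expression. Trav1, which encodes the invariant chain of MAIT cells, had 8 counts: 4 and 3 in PD-1 replicates 1 and 6 and 1 in BRQ+IgG2a replicate 1.

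Tumours with more V counts mostly showed more segments. The number of segments with at least 1 count was 27, 28, 12, 9, 17 and 14 in IgG2a, 40, 16, 30, 34, 23 and 30 in PD-1, 51, 33, 29, 28, 13 and 40 with BRQ+IgG2a, and 12, 38, 32, 35, 25 and 27 with BRQ+PD-1. The group means were 17.8 ± 7.94, 28.8 ± 8.40, 32.3 ± 12.7 and 28.2 ± 9.28 segments (SD, n = 6 each), and all groups overlapped. With at least 3 counts required, the means were 5.67, 11.7, 15.5 and 14.0. Trbv segments alone numbered 7.83 ± 3.54 in IgG2a, 12.8 ± 2.64 in PD-1, 13.8 ± 4.75 with BRQ+IgG2a and 12.5 ± 3.62 with BRQ+PD-1.

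At a fixed depth the groups overlapped. The number of Trbv segments expected in 31 counts was computed for the 18 tumours with at least 30 Trbv counts, which left out IgG2a replicates 3 to 6, PD-1 replicate 2 and BRQ+IgG2a replicate 5. It was 9.80 and 11.3 in the 2 remaining IgG2a tumours and 11.6 ± 1.53 in PD-1 (SD, n = 5). The BRQ+IgG2a tumours had 10.8 ± 1.47 (n = 5) and the BRQ+PD-1 tumours 10.1 ± 2.34 (n = 6), and all groups overlapped. For Trav, the number expected in 36 counts was 15.8 ± 1.42 in IgG2a (n = 2), 16.6 ± 3.26 in PD-1 (n = 5), 15.0 ± 2.60 in BRQ+IgG2a (n = 5) and 15.0 ± 2.41 in BRQ+PD-1 (n = 4). The lowest fixed-depth Trbv value was 5.50 Trbv segments in BRQ+PD-1 replicate 1, against 9.92 to 11.7 in the other 5 tumours of its group.

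**Figure D4:**
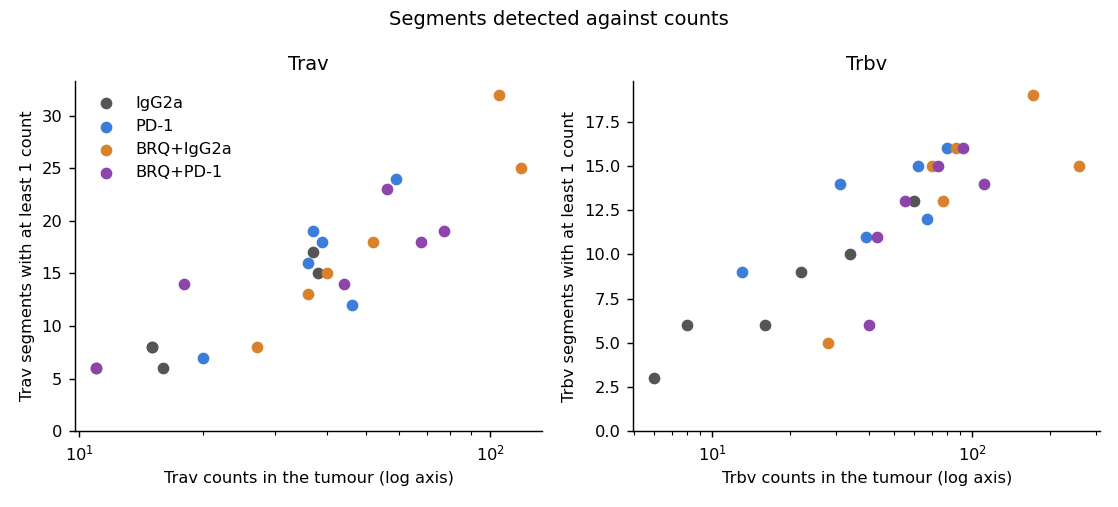
Number of Trav (left) and Trbv (right) segments with at least 1 count against the tumour's counts of that chain, on a log axis; each point is 1 of 24 tumours, coloured by group. Tumours with more counts mostly show more segments, and BRQ+IgG2a replicate 6, with 258 Trbv counts on 15 segments, lies below BRQ+IgG2a replicate 1, with 172 counts on 19.

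The share of the top Trbv segment overlapped between all groups. The IgG2a mean was 35.6 ± 10.01%, the PD-1 mean 21.9 ± 5.01%, the BRQ+IgG2a mean 35.4 ± 19.3% and the BRQ+PD-1 mean 33.4 ± 11.96% (SD, n = 6 each). The Trav means were 28.6 ± 13.8%, 19.9 ± 6.13%, 30.6 ± 15.0% and 21.5 ± 10.01% in the same order. In the 4 IgG2a tumours with 6 to 22 Trbv counts, the top segment rested on 2 to 7 counts. PD-1 replicate 2, with 13 Trbv counts, had the smallest top share of the 24 tumours, 15.4%.

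In some tumours a single segment with at least 10 counts held at least 25% of its chain. In BRQ+IgG2a replicate 6, Trbv15 held 152 of 258 Trbv counts, or 58.9% (exact Clopper-Pearson 95% interval 52.6 to 65.0%, counting error only), against a median of 2.56% in the other 23 tumours. Trav7-6 led the alpha chain of the same tumour with 45 of 119 counts, 37.8% (29.1 to 47.2%), against a median of 0% elsewhere. In BRQ+PD-1 replicate 1, Trbv15 held 22 of 40 counts, 55.0% (38.5 to 70.7%). In BRQ+IgG2a replicate 5, Trbv13-2 held 17 of 28 counts, 60.7% (40.6 to 78.5%), and Trav8n-2 held 13 of 27, 48.1% (28.7 to 68.1%).

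By this rule 14 of the 24 tumours held such a segment in at least 1 chain, namely 2 IgG2a, 3 PD-1, 4 BRQ+IgG2a and 5 BRQ+PD-1 tumours of 6 each. These numbers do not compare the groups, because tumours with few V counts seldom reach the 10 counts required. In IgG2a replicates 3 to 6 the top Trbv segment also held at least 25% of the chain. It rested there on 7, 3, 6 and 2 counts, with a tie in replicate 6. Trbv14 held 42 of 111 counts in BRQ+PD-1 replicate 3, 37.8% (28.8 to 47.5%), and its median share elsewhere was 1.16%. Trbv29 held 24 of 92 counts in BRQ+PD-1 replicate 4, 26.1% (17.5 to 36.3%), and Trav4-4-dv10 led the Trav segments there with 20 of 77 counts. Trbv12-1 held 26 of 87 counts in BRQ+IgG2a replicate 3, 29.9% (20.5 to 40.6%), beside Trav8d-2 with 16 of 36. In the control group, Trbv16 held 23 of 60 counts in IgG2a replicate 2, 38.3% (26.1 to 51.8%), and Trbv17 held 10 of 34 in IgG2a replicate 1, 29.4% (15.1 to 47.5%). In the PD-1 group, Trbv16 held 27.5% (18.1 to 38.6%) of replicate 1, Trbv29 held 25.6% (13.0 to 42.1%) of replicate 5, and Trav8d-2 held 27.8% (14.2 to 45.2%) of replicate 3. Which alpha and beta chains paired in a cell, and whether a leading segment came from 1 clone, cannot be read from these counts.

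**Figure D5:**
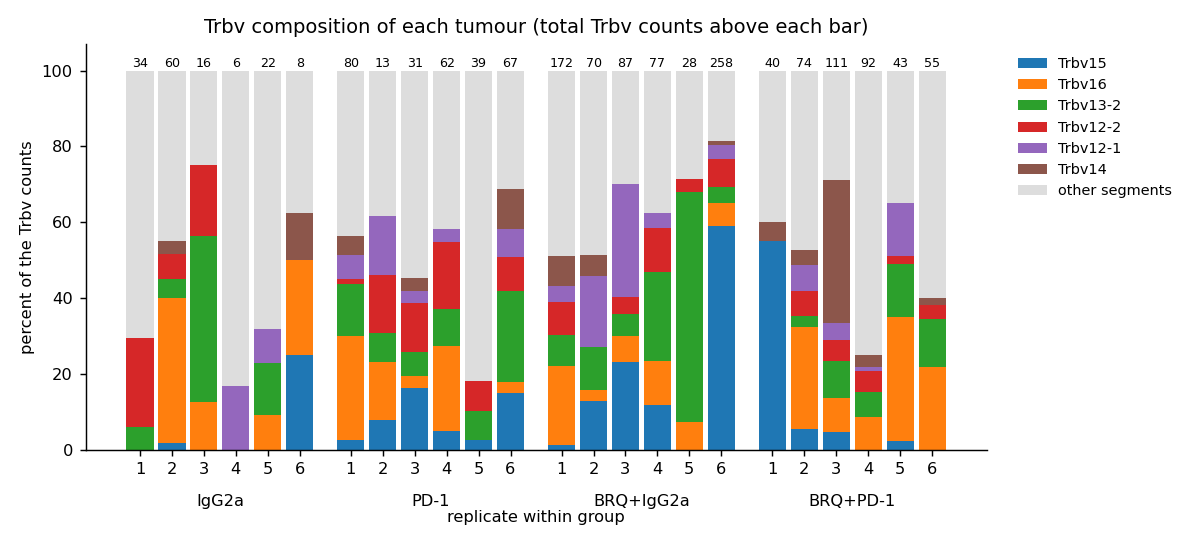
Share of each tumour's Trbv counts held by the 6 leading Trbv segments (colours) and by all other Trbv segments (grey), in percent; the number above each bar is the tumour's Trbv count. Trbv15 fills 58.9% of BRQ+IgG2a replicate 6 and 55.0% of BRQ+PD-1 replicate 1, and Trbv13-2 fills 60.7% of BRQ+IgG2a replicate 5, which has 28 counts.

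The effective number of segments, 1 over the sum of squared shares, weighs all segments by use. For Trbv the IgG2a tumours had 4.88 ± 1.42, the PD-1 tumours 8.13 ± 1.15, the BRQ+IgG2a tumours 6.43 ± 3.27 and the BRQ+PD-1 tumours 6.24 ± 2.02 (SD, n = 6 each). All 6 PD-1 tumours (6.88 to 10.3) lay above all 6 IgG2a tumours (2.57 to 6.37). Of the 6 IgG2a tumours 4 had under 30 Trbv counts, and the other two, replicates 1 and 2, had 34 and 60 counts and effective numbers of 5.78 and 5.45. PD-1 replicate 2, with 13 counts, had 8.05. At the fixed depth of 31 counts, the remaining IgG2a tumours overlapped the PD-1 tumours. Both groups that received BRQ overlapped every other group. For Trav the effective numbers were 7.16 ± 3.45, 10.2 ± 4.29, 8.40 ± 5.17 and 9.63 ± 3.75, and all groups overlapped.

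The constant regions Trac, Trbc1 and Trbc2, shared by the rearranged alpha and beta chain transcripts, gave a firmer measure of receptor transcripts. Trac stood at 3.02 ± 1.71 CPM in IgG2a, 4.83 ± 2.58 in PD-1, 11.6 ± 6.24 with BRQ+IgG2a and 7.60 ± 4.22 with BRQ+PD-1 (SD, n = 6 each). In BRQ+IgG2a against IgG2a, Trac rose with a log2 fold change of 1.92 ± 0.46 (SE) and an edgeR adjusted p of 0.0197. Trbc1 rose by 2.06 ± 0.56 with an adjusted p of 0.0408, and Trbc2 had 1.496 ± 0.48 with an adjusted p of 0.0961. Trac was above the highest IgG2a tumour in 5 of 6 BRQ+IgG2a tumours and Trbc1 in 4 of 6. Without BRQ+IgG2a replicate 6, neither was called, at adjusted p of 0.0675 for Trac and 0.190 for Trbc1. Trac was also lost without BRQ+IgG2a replicate 1 or IgG2a replicate 4, 5 or 6, and Trbc1 without BRQ+IgG2a replicate 1 or IgG2a replicate 1, 3, 4, 5 or 6. Their adjusted p over all alternatives ran from 0.000587 to 0.0675 for Trac and from 0.00337 to 0.190 for Trbc1.

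V counts were a fraction of the counts on the constant regions in all 24 tumours, from 0.0690 to 0.588 for beta and from 0.136 to 0.719 for alpha. For each count on Trbc1 or Trbc2 there were 0.204 ± 0.106 Trbv counts in IgG2a, 0.321 ± 0.139 in PD-1, 0.342 ± 0.0793 with BRQ+IgG2a and 0.366 ± 0.125 with BRQ+PD-1. For each Trac count there were 0.279 ± 0.0922, 0.384 ± 0.186, 0.243 ± 0.0984 and 0.233 ± 0.0435 Trav counts (SD, n = 6 each). All groups overlapped in both ratios. In the Trbv15-rich BRQ+IgG2a replicate 6, Trbc1 took 52.7% of the constant beta counts (396 against 356 on Trbc2), and in the Trbv13-2-rich BRQ+IgG2a replicate 5 it took 54.2% (32 against 27). Trbc1 stayed at 24.3 to 47.0% in the other 22 tumours. Among these was BRQ+PD-1 replicate 1, where Trbv15 held 55.0% of the Trbv counts and Trbc1 took 33.8% (23 against 45). Whether a leading Trbv segment goes with Trbc1 was not tested. J segments added 0 to 25 Traj and 2 to 20 Trbj counts per tumour, too few to describe by segment.

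Genes of the receptor complex and its signalling were tested from lists that were chosen with earlier results known, and their counts are descriptions. In BRQ+IgG2a against IgG2a, 4 of 7 receptor complex genes rose, among them Cd3e (2.02 ± 0.48, adjusted p 0.0174) and Cd3g (2.09 ± 0.46, 0.0115), which encode signalling subunits. The list's median log2 fold change was 1.92, against -0.01 over all genes tested. All 3 coreceptor genes rose, Cd4, Cd8a and Cd8b1, by 2.05 to 2.23 on the log2 scale. Of 15 signalling genes tested, 11 rose, including the kinase genes Lck (1.55 ± 0.42) and Zap70 (1.94 ± 0.46), and Themis (2.44 ± 0.47), a regulator of receptor signalling. The share of all genes called higher in this comparison was 2.96%.

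In BRQ+PD-1 against IgG2a, 0 of 7 receptor complex genes, 1 of 3 coreceptor genes (Cd4, 1.49 ± 0.28) and 4 of 15 signalling genes were called, all higher, where 2.48% of all genes were. The signalling genes called included Cd28, Ptprc and Themis, with Themis at 1.85 ± 0.47 (adjusted p 0.0288). Ptprc took 41.5% of the counts of the signalling list and stood at 62.9 CPM in IgG2a, where Cd3e stood at 2.65 CPM. The part of its counts that came from T cells was not tested. In the other 4 comparisons no gene of these 3 lists was called, and the interaction had a median log2 value of -1.25 for the receptor complex, with 0 of 7 genes called. The median in PD-1 against IgG2a was 0.55 for the receptor complex and 1.01 for the coreceptors.

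Markers of other lymphocytes varied beside the V segments. NK cell markers summed to 16.9 ± 8.73 CPM in BRQ+IgG2a and 5.47 ± 3.05 CPM in IgG2a, and 3 of 5 tested rose. Without Klrk1, which took 55.8% of the counts of that list, the sums were 7.07 ± 3.01 and 2.96 ± 1.10 CPM. Whether these transcripts came from NK cells or from T cells was not tested, and Cd8a rose in the same comparison. Of the gamma delta T cell markers 4 of 10 could be tested and none was called in BRQ+IgG2a against IgG2a. Sox13, which is not particular to T cells, took 94.3% of the counts of that list and stood at 25.4 CPM in IgG2a and 50.9 CPM in PD-1 (log2 fold change 0.99 ± 0.26, edgeR adjusted p 0.341). The other 9 markers summed to 1.44 ± 0.763 CPM in IgG2a, 1.57 ± 0.582 in PD-1, 3.44 ± 2.31 with BRQ+IgG2a and 1.87 ± 1.26 with BRQ+PD-1, with Il17a at 0 counts. Among those tested, Tcrg-C2, a gamma constant region, had 1.69 ± 0.70 (adjusted p 0.236), Trgv2 2.38 ± 0.69 (0.0579) and Trdc, the delta constant region, -0.33 ± 0.68 (0.884). Rag1 and Rag2, the recombinase genes of developing lymphocytes, had 0 counts in all libraries, which allows up to 3 counts per library, or 0.157 CPM in the smallest, for counting error only. Ptcra, the pre-receptor chain of thymocytes, had 1 count in all, and Dntt 77 counts over 18 tumours. B cell markers summed to 2.79 ± 0.972 CPM in IgG2a, 12.3 ± 23.01 in PD-1, 5.41 ± 1.88 with BRQ+IgG2a and 5.07 ± 2.202 with BRQ+PD-1, with all 8 markers counted. Without PD-1 replicate 6 the PD-1 value was 2.90 ± 0.814 CPM (n = 5). Naive and central memory markers summed to 93.9 ± 5.90, 104 ± 22.8, 106 ± 13.7 and 96.3 ± 15.0 CPM, with 0 of 7 called in BRQ+IgG2a against IgG2a. The part of lymph node tissue in the V counts was not tested. PD-1 replicate 6, the tumour richest in B cell markers, had 106 V counts, within the 33 to 139 of its group. That tumour was the highest of its group for Trac (8.90 CPM), Trbc1 (4.59 CPM) and Trbc2 (6.14 CPM). The ratio of mean Trac in PD-1 to IgG2a was 1.60, and 1.33 without PD-1 replicate 6.

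Trypsin genes lie between the Trbv segments of the beta locus and had few counts. Prss1, Prss3 and Try10 had 0 counts, and the 6 genes together summed to at most 0.523 CPM in any tumour, with Prss2 taking 96.6% of their counts. Of 6 melanoma markers, Mitf took 96.1% of the counts, and the other 5 summed to 0.155 to 1.79 CPM per tumour, with Dct at 0 counts, Tyrp1 at 2 and Mlana at 12.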

How the data were processed

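RNA from 24 tumours was sequenced, and the authors deposited raw counts per Ensembl gene, which were used as deposited. Per the submitters' processing notes, the build was GRCm39, reads were handled with HISAT2 2.2.1 and StringTie 2.2.1, and the trimming and quality tools were MultiQC 1.11, FastQC 0.11.8 and Trim Galore 0.6.7. The program, annotation and strand setting behind the counts were not stated in the labels or headers. The authors' FPKM and TPM tables were not used here, because they hold part of the members. Symbols, sequences and GRCm38 positions came from GENCODE M21, which named 52081 of 55414 genes. CPM are counts per 1000000 of the library total. The main test was edgeR 4.0.16 (R 4.3.3; TMM, filterByExpr, quasi-likelihood with group as the only term) in 1 fit over 24 libraries, with Benjamini-Hochberg adjustment over 16029 genes, checked on simulated data. DESeq2 1.42.0 was an alternative. The B cell marker value without PD-1 replicate 6 was added after seeing the data. The members, lists and tests were chosen with earlier results of these data known. Named members were those called, the 6 Trbv and 6 Trav segments with the highest mean CPM, those leading at least 3 tumours or holding the largest share, Trav11, Trav11d and Trav1, and the reference lists. Sums, segment numbers and shares were described with SciPy 1.17.1 and got no p-value. Replicate pairs of a group had a spread of 9.38 to 222 times that of counting alone, and each library was kept as its own sample. Values of 1 signalling gene are not reported here.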

Additional observations from a re-analysis of the deposited data

Results flagged for a closer look

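In groups of 6 tumours, a highest or lowest tumour was singled out when its gap to the nearest other tumour exceeded Dixon's 95% critical value for the group's range. Chance flags about 1 in 20 groups, and 20 of 89 groups examined (22.5%) held such a tumour, many of them with counts at or near 0. No explanation was tested for any of them.

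Among the whole-chain measures, PD-1 replicate 2 had a Trav sum of 0.749 CPM, the nearest tumour of its group being at 1.52. BRQ+PD-1 replicate 1 had 5.5 Trbv segments expected at the fixed depth, the nearest being at 9.92. PD-1 replicate 3 had an effective number of 10.3 Trbv segments, the nearest being at 8.05.

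Of the Trbv segments, Trbv15 stood at 6.56 CPM in BRQ+IgG2a replicate 6 (nearest 0.897) and at 0.854 CPM in BRQ+PD-1 replicate 1 (nearest 0.221). Trbv14 stood at 1.86 CPM in BRQ+PD-1 replicate 3 (nearest 0.116) and at 0.551 CPM in BRQ+IgG2a replicate 1 (nearest 0.168). Trbv16 stood at 0.794 CPM in IgG2a replicate 2 and Trbv13-2 at 0.307 CPM in IgG2a replicate 3.

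Of the Trav segments, Trav7-6 stood at 1.94 CPM in BRQ+IgG2a replicate 6, where the other 5 tumours had 0 counts, and at 0.295 CPM in BRQ+PD-1 replicate 6. It was also singled out at 0.034 CPM in IgG2a replicate 1, which is 1 count. Trav4-4-dv10 stood at 0.773 CPM in BRQ+PD-1 replicate 4 and 0.266 CPM in PD-1 replicate 5. Trav8d-2 stood at 0.795 CPM in BRQ+PD-1 replicate 3 and 0.242 CPM in IgG2a replicate 2. Trav8n-2 stood at 0.276 CPM in IgG2a replicate 4, Trav13-2 at 0.232 CPM in BRQ+IgG2a replicate 5 and Trav12-2 at 0.207 CPM in IgG2a replicate 2. Trav1 stood at 0.0393 CPM in BRQ+IgG2a replicate 1, which is 1 count.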

How the results depend on the processing

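Group means of the V segment sums, shares, effective numbers, fixed-depth numbers and ratios to the constant regions moved by less than 1 SD under every alternative run, except that the top Trav share in PD-1 became 28.3% with families joined. The number of segments fell by construction when at least 3 counts were required, to 5.67 in IgG2a, 11.7 in PD-1, 15.5 with BRQ+IgG2a and 14.0 with BRQ+PD-1. The count of V segments called in BRQ+IgG2a against IgG2a was 0 in the main analysis, 2 without an expression filter (Trbv12-1 and Trbv15), 1 with DESeq2 and 1 without the 4 muscle-rich libraries (Trbv13-2 in both), and 0 to 1 when leaving out each tumour in turn, the 1 being Trbv13-2 without IgG2a replicate 3. It was 0 in the other 5 comparisons under every alternative run.

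Over all genes, DESeq2 called 888 (BRQ+IgG2a against IgG2a), 27 (PD-1 against IgG2a), 1540 (BRQ+PD-1 against IgG2a), 1406 (BRQ+PD-1 against PD-1), 4 (BRQ+PD-1 against BRQ+IgG2a) and 11 (interaction), where edgeR called 554, 3, 627, 808, 0 and 0. In BRQ+PD-1 against IgG2a, 398 genes were higher and 229 lower with edgeR, and 713 higher and 827 lower with DESeq2. With the replicate block, the replicate number added as a term, the first 4 counts were 361, 0, 285 and 411. The 36 same-numbered pairs had correlations of -0.64 to 0.444, with 15 over 0.1. Differently numbered pairs were not compared, so these values cannot decide whether the numbers pair the tumours. Without an expression filter the counts were 0 in PD-1 against IgG2a, 297 in BRQ+PD-1 against IgG2a and 431 in BRQ+PD-1 against PD-1. Without the 4 muscle-rich libraries they were 404 and 502 in those last 2 comparisons and 1 in the interaction. Leaving out each tumour in turn gave 258 to 1179 genes in BRQ+IgG2a against IgG2a (258 without BRQ+IgG2a replicate 6, 308 and 309 without IgG2a replicates 6 and 5, 363 and 1179 without replicates 1 and 5 of BRQ+IgG2a), 0 to 2 in PD-1 against IgG2a (2 without PD-1 replicate 2, 0 without any other), 256 to 783 in BRQ+PD-1 against IgG2a (256 and 260 without IgG2a replicates 3 and 1, 263, 355 and 393 without BRQ+PD-1 replicates 3, 2 and 1), 399 to 1083 in BRQ+PD-1 against PD-1 (399 without BRQ+PD-1 replicate 3, 413, 420 and 425 without PD-1 replicates 6, 2 and 1), 0 to 65 in BRQ+PD-1 against BRQ+IgG2a (65 without BRQ+IgG2a replicate 5, 1 without BRQ+PD-1 replicate 3) and 0 to 1 in the interaction (1 without BRQ+PD-1 replicate 1). The cause of these moves was not tested. Depth limits most members: 161 of 163 did not pass the expression filter.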
